A study of Mus musculus with 8 samples.

Results

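H3K27ac peaks in the 4 Hox gene clusters of the mouse were examined in colon cancer organoids with and without Gata6. The clusters were defined as windows on mm9: HoxA on chromosome 6 from 52.05 to 52.28 Mb, HoxB on chromosome 11 from 96.00 to 96.27 Mb, HoxC on chromosome 15 from 102.72 to 102.90 Mb and HoxD on chromosome 2 from 74.44 to 74.64 Mb. Every peak of the deposited table that overlapped a window was taken, which gave 15 of 22731 peaks. HoxA held 5 of them and HoxB held 10, while the HoxC and HoxD windows held 0 each. H3K27ac, an acetylation of histone H3 found at active promoters and enhancers, was mapped by CUT&RUN, in which an antibody guides a nuclease that releases the DNA around the mark. Control organoids carried the genotype AKP (3 libraries), and knockout organoids carried Gata6KO_AKP (3 libraries). AKP, which the labels do not spell out, is shared by both groups. All libraries are labelled as colon cancer organoids, with C57Bl6 given for the recipient mice. The labels state neither how the knockout was made, nor how many clones or cultures it comes from, so the p-values below measure the spread between libraries, which may be technical. The H3K4me3 and IgG libraries of the control organoids were not analysed here, so no background was subtracted. The table names no genes, and the level at Gata6 was not used to check the labels.

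Hox genes encode homeodomain transcription factors that lie side by side in clusters, numbered by paralog group. The order of the genes along a cluster follows the order in which they are used along the body axis, so that genes with high group numbers are used towards the posterior end. The hindgut and its epithelium keep an anterior to posterior Hox pattern in the adult. Active Hox genes carry H3K27ac, whereas silent ones are usually covered by the Polycomb mark H3K27me3, which occupies the same residue. GATA6, the factor removed here, is a zinc finger transcription factor of the gut epithelium that binds GATA sequences. In the RefSeq gene order (GRCm38.p6), the group numbers of the HoxA genes rise with increasing position up to Hoxa13, whereas the HoxB, HoxC and HoxD genes begin with group 13 and end with a low group number. That order was taken to hold along the mm9 windows. Single peaks were not assigned to genes, and the windows reach beyond the outermost Hox genes.

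The clusters also carry microRNA genes, which regulate Hox transcripts among others. Their mature sequences (RefSeq, GRCm38.p6) are shown because each of the 4 clusters holds at least 1 of 2 seed families, with the seed, bases 2 to 8, in capitals.
miR-10a-5p (HoxB): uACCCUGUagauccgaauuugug
miR-10b-5p (HoxD): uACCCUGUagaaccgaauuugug
miR-196a-5p (HoxB and HoxC): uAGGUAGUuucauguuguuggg
miR-196b-5p (HoxA): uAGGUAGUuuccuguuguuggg
The miR-10 family thus has a gene in HoxB and HoxD, and the miR-196 family one in HoxA and HoxC as well as in HoxB. MicroRNA levels were not measured.

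RefSeq promoters were at hand for 22 of the 39 Hox genes (9 in HoxA, 3 in HoxB, 1 in HoxC and 9 in HoxD), with 24 promoters in all. The 250 bases before each start were searched on both strands for AGATAA or AGATAG or TGATAA or TGATAG, which are common forms of the GATA sequence. A match was found in 6 of the 24 Hox promoters (25.0%), against 26.5% of all 32851 promoters of the table. The 6 were those of Hoxd12, Hoxd10, Hoxd8, Hoxa7, Hoxa9 and Hoxb8. CG dinucleotides were frequent, with a median of 12.5 and a range of 2 to 35 per Hox promoter, against a median of 6 over all promoters (quartiles 2 and 16). The 3 matching promoters of the clusters with peaks are shown 5′ to 3′ on the strand of the gene, with the match in capitals.
Hoxa7 (GRCm38.p6 chr6:52218574-52218823, minus strand): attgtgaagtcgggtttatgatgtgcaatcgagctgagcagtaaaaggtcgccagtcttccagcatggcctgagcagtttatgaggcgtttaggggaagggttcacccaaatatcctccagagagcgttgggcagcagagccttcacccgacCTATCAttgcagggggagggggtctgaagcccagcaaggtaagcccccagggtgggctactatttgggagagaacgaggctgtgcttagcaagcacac
Hoxa9 (GRCm38.p6 chr6:52227371-52227620, minus strand): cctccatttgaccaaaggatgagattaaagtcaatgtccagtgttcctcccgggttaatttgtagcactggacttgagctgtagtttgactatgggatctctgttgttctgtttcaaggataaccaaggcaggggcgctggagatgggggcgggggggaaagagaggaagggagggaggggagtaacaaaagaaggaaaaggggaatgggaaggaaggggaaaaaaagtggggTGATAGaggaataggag
Hoxb8 (GRCm38.p6 chr11:96281655-96281904, plus strand): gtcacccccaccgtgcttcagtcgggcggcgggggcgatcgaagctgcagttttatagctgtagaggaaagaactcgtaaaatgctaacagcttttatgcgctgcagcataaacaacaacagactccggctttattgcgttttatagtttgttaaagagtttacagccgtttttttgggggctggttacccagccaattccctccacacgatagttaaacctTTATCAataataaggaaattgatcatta
These coordinates are of another build than the peaks and were not laid over them. A match is a run of letters and not a measured binding site.

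The libraries held 5141856 to 7026388 reads in peaks, of which 3548 to 5253 fell in the 15 Hox peaks (0.0649% to 0.0795%). Levels are given as CPM, counts per 1000000 reads in peaks after TMM scaling, and as CPM per kb of peak length where peaks are compared with one another. A peak was called where edgeR's quasi-likelihood test gave a Benjamini-Hochberg adjusted p under 0.05 over all 22731 peaks. Changes are log2 fold changes of knockout over control with their standard error (SE), and group values are mean ± SD over 3 libraries.

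The 4 windows differed in how much of their length was covered by peaks of the table. Peaks covered 44.2 kb of the 270 kb HoxB window (16.4%) and 15.8 kb of the 230 kb HoxA window (6.86%), but no base of the 180 kb HoxC and 200 kb HoxD windows. The 22718 peaks on assembled chromosomes, which leave out those on unplaced or unlocalised sequence, covered 3.20% of these chromosomes, counted to the last peak of each. Coverage was 5.81% on chromosome 11, the chromosome of HoxB, and 2.75% on chromosome 6, that of HoxA. HoxB was therefore covered more densely than its chromosome and than its own flanks of 1 Mb, which were covered to 4.62% on the low and 6.31% on the high side. HoxA likewise exceeded its flanks, at 3.33% and 2.73%. The peak set is shared by all 6 libraries, so coverage describes control and knockout together.

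Within both covered clusters the peaks were confined to part of the window. Each window was divided into 3 equal parts: one at the group 13 end, a middle one and one at the low-number end. In HoxB, 6 peaks lay in the group 13 part, 4 in the middle part and 0 in the low-number part, and the 135.8 kb at that end were empty. In HoxA, 4 closely spaced peaks lay in the middle part and 1 had its midpoint 15.3 kb from the group 13 edge, while 116.9 kb were empty at the low-number side. The stretch without peaks that begins at the low-number side of the acetylated block was longer than the window in both clusters. It measured 493.5 kb at HoxA (51673400 to 52166869) and 492.2 kb at HoxB (96134203 to 96626443). Gaps at least this long made up 4.55% and 4.56% of the number of gaps between neighbouring peaks, whose median was 9.1 kb. Long gaps take up a larger share of the length than of the number, and that share was not computed.

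The empty windows were of different kinds. HoxD lay inside a gap of 245.7 kb bounded by a peak on each side, at 22.3 kb and 23.4 kb from the window. By number, 7.78% of all gaps were at least as long. At HoxC, the last peak of chromosome 15 ended at 102498851, which is 221.1 kb before the window, and no peak followed up to the chromosome end. RefSeq order places 15 protein-coding genes between Hoxc4 and that end, among them Hnrnpa1, Cbx5, Copz1 and Smug1, which are widely expressed. An unacetylated HoxC cluster and a stretch missing from the peak table cannot be told apart.

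**Figure D1:**
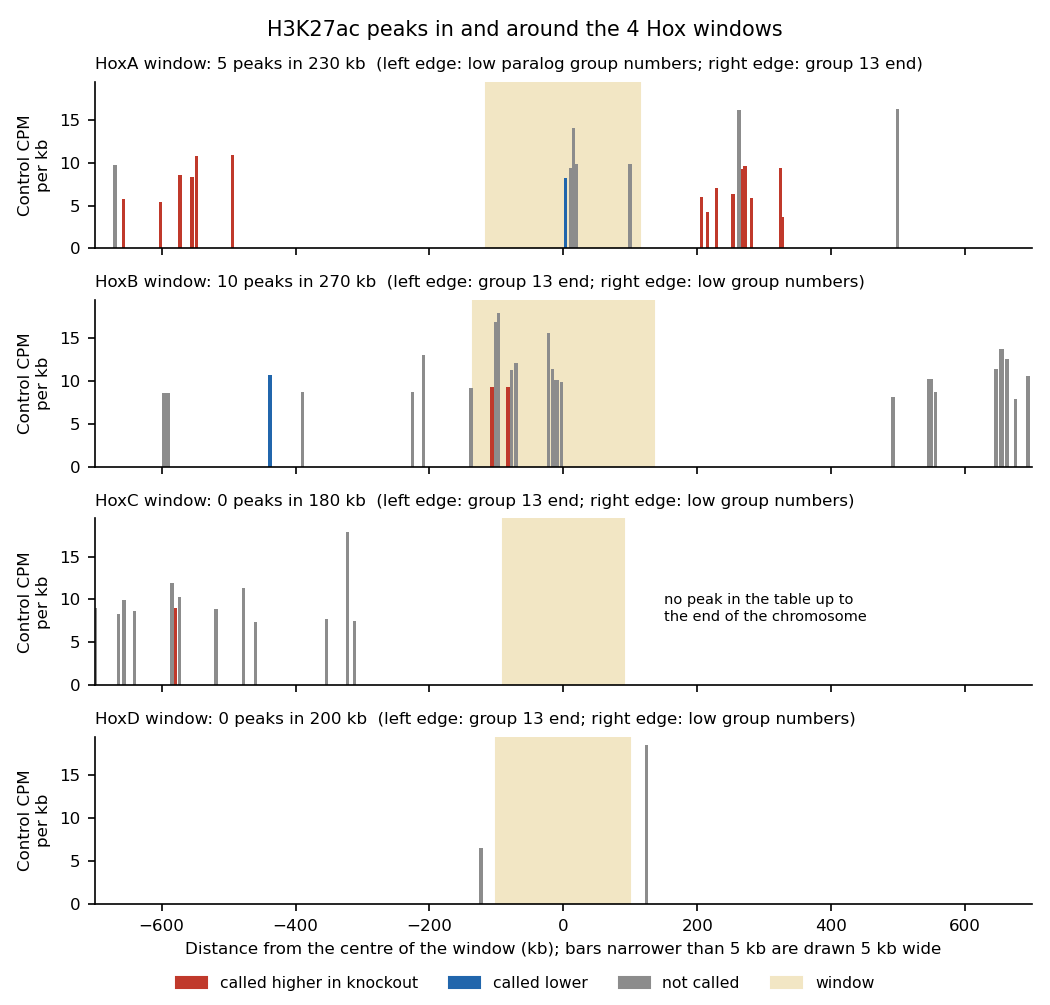
H3K27ac peaks in and around the HoxA, HoxB, HoxC and HoxD windows (shaded), drawn by distance in kb from the centre of the window; bar height is the mean control level in CPM per kb, and colour gives the call in the knockout. HoxA and HoxB are acetylated over part of their length, HoxC and HoxD hold 0 peaks, and most peaks beside HoxA are called higher while those inside it are not.

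Where the clusters were acetylated, the peaks were wide and strong in total but ordinary per kb. The 15 Hox peaks had a median width of 3798 bp against 2690 bp over all peaks, and 12 of them were wider than the median peak. Their median control level was 49.0 CPM against 27.9, again with 12 of 15 above the median peak. Per kb of length the median was 10.1 CPM against 10.7, and 8 of 15 lay below the median peak. HoxB exceeded HoxA on each of these measures. The HoxB medians were 4405.5 bp, 54.8 CPM and 11.3 CPM per kb, and the HoxA medians 2866 bp, 28.3 CPM and 9.79 CPM per kb. The HoxA medians of width and total level were thus close to those of all peaks.

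The share of Hox peaks called in the knockout was near that of all peaks, and the few called peaks fell in HoxA and rose in HoxB. All 15 peaks passed the filter on low counts, and 3 were called, in a comparison in which 21.8% of all peaks were called. In HoxB, 2 peaks rose, against 11.6% called higher over all peaks, and in HoxA 1 peak fell, against 10.2% called lower. The libraries of the groups did not overlap at 4 of the 15 peaks, a separation that 33.8% of all peaks showed. Both counts were near the background. The median log2 fold change was 0.08 over the 15 peaks, -0.10 in HoxA and 0.12 in HoxB, beside -0.01 over all peaks, 0.05 on chromosome 6 and 0.01 on chromosome 11.

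**Figure D2:**
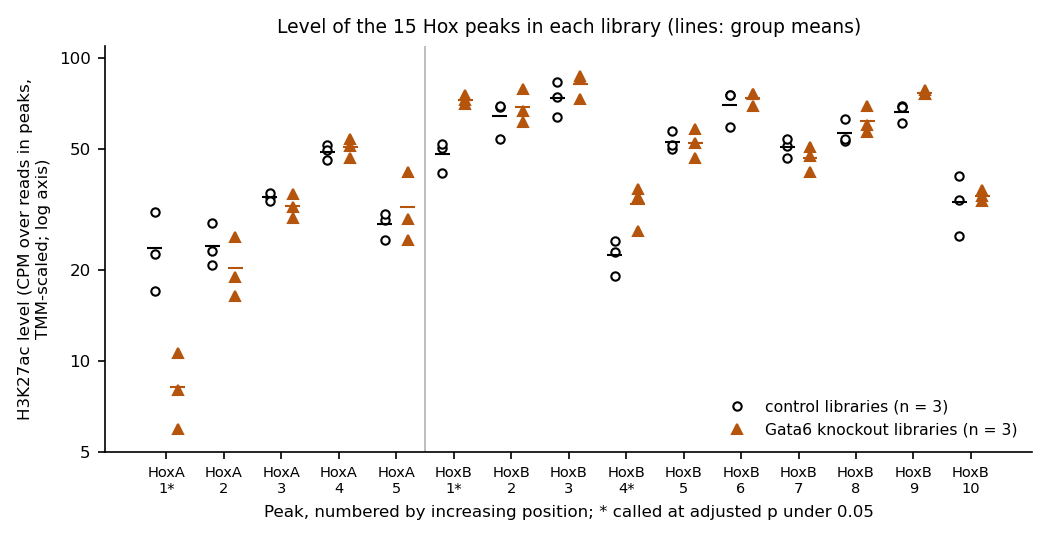
H3K27ac level of each of the 15 Hox peaks in each library, in CPM over reads in peaks with TMM scaling on a log axis; circles are the 3 control and triangles the 3 Gata6 knockout libraries, bars are group means, and asterisks mark called peaks. The first HoxA peak lies at 5.92 to 10.6 CPM in the knockout, under all control libraries at 17.0 to 30.9, and the first and the fourth HoxB peak lie above theirs.

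HoxA, whose genes include Hoxa9, Hoxa10 and Hoxa13 of the posterior groups, held the largest change. Its first peak (chromosome 6, 52166870 to 52169735), which borders the empty low-number side, measured 17.0, 22.6 and 30.9 CPM in control replicates 1 to 3 and 5.92, 7.98 and 10.6 CPM in knockout replicates 1 to 3. Each knockout library lay below each control library. The peak fell 2.88-fold, from 23.5 ± 6.99 to 8.16 ± 2.34 CPM (log2 fold change -1.53 ± 0.25 SE, adjusted p = 8.1e-08). The change ranked as number 10 from the lowest among all 22731 peaks. It rested on 98, 116 and 216 reads in the control and 34, 44 and 66 in the knockout libraries. With each library left out in turn, the log2 fold change was -1.76 to -1.27 and the peak stayed called. The highest adjusted p of edgeR's test was 0.00394, without control replicate 3. The peak made up 14.6% ± 3.77 of the HoxA sum over the controls and 5.61% ± 0.88 over the knockouts (SD, n = 3).

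The other 4 HoxA peaks did not pass the test, and their groups overlapped. The second peak (52173965 to 52176518), 4.2 kb further on, measured 23.0, 28.4 and 20.6 CPM in control and 16.4, 18.9 and 25.7 CPM in knockout libraries, with a log2 fold change of -0.23 ± 0.19 SE (adjusted p = 0.421). The third peak (52178740 to 52181226), the densest of the cluster at 14.0 CPM per kb, measured 34.8, 35.8 and 33.8 CPM in control and 29.6, 32.3 and 35.6 CPM in knockout libraries (-0.10 ± 0.15 SE, adjusted p = 0.724). The knockout values of both peaks thus reached into the control range. The fourth peak (52181569 to 52186547), the widest at 4979 bp, measured 51.5, 46.0 and 49.6 CPM in control and 51.2, 46.8 and 53.9 CPM in knockout libraries (0.05 ± 0.13 SE, adjusted p = 0.851). The fifth peak (52263260 to 52266144), nearest the group 13 edge and 76.7 kb from the fourth, measured 25.0, 29.2 and 30.5 CPM in control and 25.1, 29.4 and 42.0 CPM in knockout libraries (0.19 ± 0.16 SE, adjusted p = 0.446). Its higher knockout mean came from replicate 3. Evx1, another homeobox gene, follows Hoxa13 in RefSeq order, and it was not determined whether this peak lies within the Hox genes or beyond them. In order of position, the 5 fold changes went from the lowest at the first peak to the highest at the fifth. Only the first was called, and the order of the other 4 was not tested.

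In HoxB, both peaks that rose lay in the group 13 part of the window, which held 6 of the 10 HoxB peaks. Hoxb13, a gene of the posterior gut and prostate, is the first HoxB gene in RefSeq order. It was not determined whether these peaks lie at that gene, elsewhere within the Hox genes or before them. The first peak (chromosome 11, 96026152 to 96031307), 5156 bp wide, measured 41.7, 50.2 and 52.1 CPM in control and 75.6, 70.7 and 72.5 CPM in knockout libraries. All knockout libraries lay above all control libraries. The peak rose 1.52-fold, from 48.0 ± 5.53 to 72.9 ± 2.44 CPM (log2 fold change 0.60 ± 0.12 SE, adjusted p = 5.23e-06). The fourth peak (96051103 to 96053503), the narrowest and lowest of the cluster, measured 24.9, 19.1 and 22.9 CPM in control and 34.8, 37.0 and 26.8 CPM in knockout libraries. Here too the groups were apart, though knockout replicate 3 came near to control replicate 1. The peak rose 1.47-fold, from 22.3 ± 2.94 to 32.9 ± 5.39 CPM (0.55 ± 0.17 SE, adjusted p = 0.00638), and it missed the threshold without control replicate 2 (adjusted p = 0.0553) or without knockout replicate 2 (adjusted p = 0.0764).

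The 4 other peaks at the group 13 end included the strongest of all Hox peaks, and none was called. The second peak (96031582 to 96035379) lay 0.3 kb from the first, which rose, and measured 68.9, 54.1 and 69.3 CPM in control and 61.3, 66.8 and 79.2 CPM in knockout libraries (0.10 ± 0.11 SE, adjusted p = 0.564). The third peak (96036208 to 96040326), with 17.9 CPM per kb denser than 95.4% of all peaks, measured 63.7, 74.4 and 83.6 CPM in control and 73.5, 87.4 and 85.0 CPM in knockout libraries (0.15 ± 0.10 SE, adjusted p = 0.338). Controls and knockouts overlapped at both. The fifth peak (96054739 to 96059430), 1.2 kb from the fourth, which rose, went from 52.9 ± 3.83 to 52.5 ± 5.85 CPM (-0.01 ± 0.12 SE, adjusted p = 0.960), and the sixth (96060801 to 96066602) from 70.0 ± 9.42 to 73.9 ± 3.73 CPM (0.08 ± 0.11 SE, adjusted p = 0.684). Neighbouring peaks thus differed in their calls at a distance of 0.3 or 1.2 kb, but the difference between neighbours was not tested.

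The 4 HoxB peaks of the middle part, 45.0 kb beyond the sixth, were not called either. The seventh peak (96111576 to 96114832) had 50.7 ± 3.72 CPM in control and 46.8 ± 4.39 CPM in knockout libraries (-0.12 ± 0.13 SE, adjusted p = 0.589), and the eighth (96116259 to 96121252) had 56.7 ± 5.24 and 62.0 ± 6.60 CPM (0.13 ± 0.12 SE, adjusted p = 0.494). The ninth peak (96121487 to 96128056), the widest Hox peak at 6570 bp, measured 61.1, 69.3 and 68.7 CPM in control and 75.9, 78.4 and 76.0 CPM in knockout libraries. Its knockout libraries all lay above the controls, yet the log2 fold change of 0.21 ± 0.11 SE had an unadjusted p of 0.0499 and an adjusted p of 0.156 in edgeR's test. The tenth peak (96130838 to 96134202), which borders the empty low-number side, measured 25.7, 33.9 and 40.7 CPM in control and 36.6, 33.7 and 35.0 CPM in knockout libraries (0.06 ± 0.15 SE, adjusted p = 0.827). The 3 knockout values fell inside the control range, unlike at the HoxA peak that borders its own empty side.

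**Figure D3:**
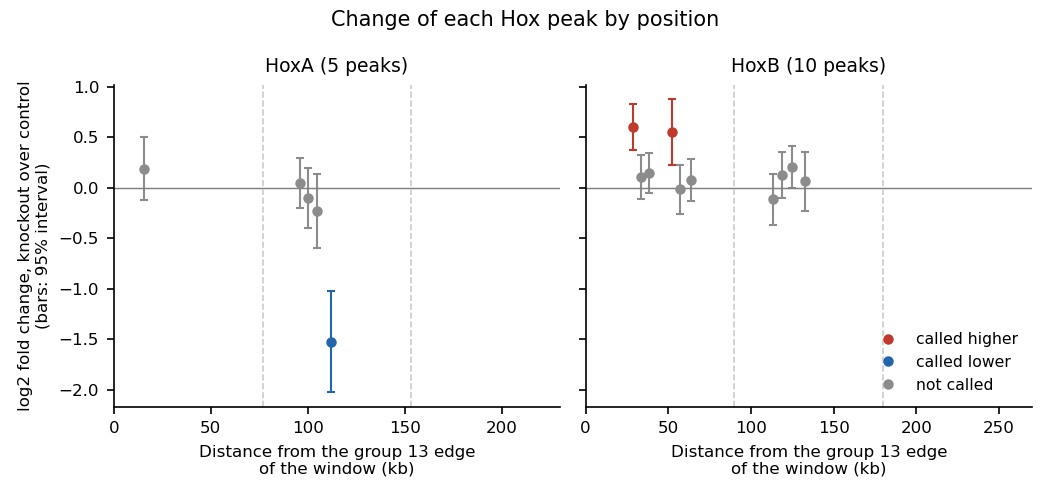
Log2 fold change (knockout over control) of each Hox peak against its distance in kb from the group 13 edge of its window; bars are 95% intervals, dashed lines divide the window in 3 equal parts, and colour gives the call. The peak that fell in HoxA is the one farthest from the group 13 edge, and the 2 that rose in HoxB lie in the part nearest to it. That part holds 6 of the 10 HoxB peaks.

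Summed over its peaks, HoxB rose slightly in the knockout and HoxA did not pass the test. The HoxB sum was 499.5, 528.9 and 586.9 CPM in control and 579.1, 610.0 and 622.7 CPM in knockout libraries, and the groups overlapped because control replicate 3 exceeded knockout replicate 1. Its log2 fold change was 0.16 ± 0.04 SE (95% interval 0.08 to 0.25, adjusted p = 0.000798; 21.8% of the rows of the table with cluster sums were called), while the exact two-sided permutation test over libraries gave p = 0.2. The call was lost without control replicate 1 (0.12, adjusted p = 0.0523) and without the 2 peaks called on their own (0.09, adjusted p = 0.147). The HoxA sum was 151.3, 162.0 and 165.4 CPM in control and 128.1, 135.3 and 167.7 CPM in knockout libraries, with knockout replicate 3 above every control. Its log2 fold change was -0.15 ± 0.07 SE (95% interval -0.30 to -0.004, adjusted p = 0.143, exact permutation p = 0.4). It was -0.28 and called without knockout replicate 3 (adjusted p = 0.00974), and it was -0.003 without the peak that fell (adjusted p = 0.985).

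By position, the part sum that changed most in each cluster was the one that held its called peaks. The HoxB group 13 part held both peaks that rose, and the HoxA middle part held the peak that fell. Sums of the parts without these peaks were not fitted, so the part sums are no separate evidence on position. The 6 HoxB peaks of the group 13 part rose from 331.3 ± 26.7 to 383.2 ± 13.4 CPM (0.21 ± 0.05 SE, adjusted p = 0.000483, exact permutation p = 0.1), with every knockout library above every control. The 4 HoxB peaks of the middle part had 207.2 ± 17.8 and 220.7 ± 9.99 CPM (0.09 ± 0.06 SE, adjusted p = 0.345, exact permutation p = 0.3). The 4 HoxA peaks of the middle part fell from 131.3 ± 4.51 to 111.6 ± 12.3 CPM (-0.23 ± 0.08 SE, adjusted p = 0.0249, exact permutation p = 0.1). That HoxA call was lost when control replicate 2 or 3 or knockout replicate 1 or 2 was left out (adjusted p = 0.0660, 0.0935, 0.163 and 0.122), and also with trended offsets (0.0650) or with the filter at the 20th percentile of the mean level (0.0576).

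Differences between clusters and between positions were tested on log2 ratios per library, 5 in all, where 3 against 3 libraries cannot give an exact permutation p below 0.1. The log2 ratio of HoxB to HoxA was 1.72, 1.71 and 1.83 in control and 2.18, 2.17 and 1.89 in knockout libraries. All knockout values were higher, by 0.33 on average (exact two-sided permutation p = 0.1, adjusted 0.125). The ratio of the group 13 part to the middle part was higher in the knockout by 0.40 in HoxA and by 0.12 in HoxB, again without overlap of the libraries (p = 0.1, adjusted 0.125, for each by the exact permutation test). In HoxA the group 13 part is a single uncalled peak, and the middle part holds the peak that fell. In HoxB the group 13 part holds both peaks that rose. The ratios of parts were not computed without the called peaks. None of these differences passed the adjusted threshold, which the design could not reach.

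Most peaks around HoxA rose in the knockout, while none inside it did. Within 1 Mb of the window lay 22 peaks, and 17 of them rose while 0 fell, against 11.6% and 10.2% over all peaks. Their median log2 fold change was 0.81, beside 0.05 over chromosome 6, where 16.1% of peaks were called higher. The gain lay on both sides, with 8 of 11 peaks and a median of 0.68 on the low-number side, which RefSeq order gives to Skap2 and Snx10, and 9 of 11 peaks and a median of 0.86 on the group 13 side, which it gives to Evx1, Hibadh, Tax1bp1 and Jazf1. Inside the window, 0 of 5 peaks rose and 1 fell. The summed level of the flanks was 524.9, 545.5 and 522.9 CPM in control and 839.7, 865.2 and 853.0 CPM in knockout libraries, 1.61 times as high, with libraries of a group close together. The log2 ratio of the HoxA sum to its flanks went from -1.74 ± 0.07 to -2.58 ± 0.20, lower in each knockout library than in each control (difference -0.84, exact two-sided permutation p = 0.1, the smallest possible, adjusted 0.125). In control, the flank peaks had a median of 27.1 CPM on the low-number and 17.7 CPM on the group 13 side, beside 28.3 CPM for the HoxA peaks. Among the weakest 10% of all peaks by mean level, 15.8% were called higher and 1.54% lower. Their median control level was 12.6 CPM, below that of either flank, so this set was not matched to the flank peaks in level. With trended offsets, which are fitted over the level, 16 of the 22 flank peaks were called higher, with a median of 0.79. This comparison was chosen after the values had been seen.

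The peaks nearest to HoxA, just outside the rule, belonged to the gain. The nearest on the group 13 side (52369886 to 52372277, 89.9 kb away) measured 16.3, 11.7 and 14.9 CPM in control and 26.8, 23.9 and 25.7 CPM in knockout libraries (log2 fold change 0.83 ± 0.20 SE, adjusted p = 0.000591). The nearest on the low-number side (51668916 to 51673399, 376.6 kb away) measured 44.5, 51.0 and 51.0 CPM in control and 63.7, 70.4 and 63.8 CPM in knockout libraries (0.43 ± 0.12 SE, adjusted p = 0.00243). At both, all knockout libraries lay above all control libraries, whereas the peak at the inner edge of the same gap was the HoxA peak that fell.

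The peaks around HoxB were called higher about as often as all peaks. Of 36 peaks within 1 Mb, 4 rose and 1 fell, against 11.6% and 10.2% over all peaks, with a median log2 fold change of 0.12. All 4 that rose were among the 17 peaks on the low-coordinate side, where the highest log2 fold change was 1.57, while 0 of 19 were called on the other side. The flank sum was 1043 ± 19.0 CPM in control and 1125 ± 26.1 CPM in knockout libraries, 1.08 times as high, and the log2 ratio of HoxB to its flanks differed by 0.06 (exact permutation p = 0.5, adjusted 0.5). The peaks next to the window, 2.0 kb below it (95995905 to 95998050; 19.8 ± 3.74 and 16.6 ± 1.38 CPM) and 356.4 kb above it (96626444 to 96628400; 15.8 ± 3.18 and 17.8 ± 3.85 CPM), were not called (adjusted p = 0.436 and 0.709).

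The peaks that bound the empty HoxC and HoxD windows were not called. Below HoxD (74416044 to 74417703), the level was 10.9 ± 2.55 CPM in control and 14.6 ± 4.23 CPM in knockout libraries (adjusted p = 0.340). Above HoxD (74663443 to 74664658), a narrow peak denser than 96.3% of all peaks measured 19.7, 19.5 and 28.4 CPM in control and 17.4, 17.1 and 17.6 CPM in knockout libraries, all below the controls (-0.38 ± 0.20 SE, adjusted p = 0.172). The last peak before HoxC (102496971 to 102498851) had 14.0 ± 1.90 and 14.1 ± 3.94 CPM (adjusted p = 0.996). The peak set shared by all libraries held no peak in either window, so a gain or loss there could not be measured.

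**Figure D4:**
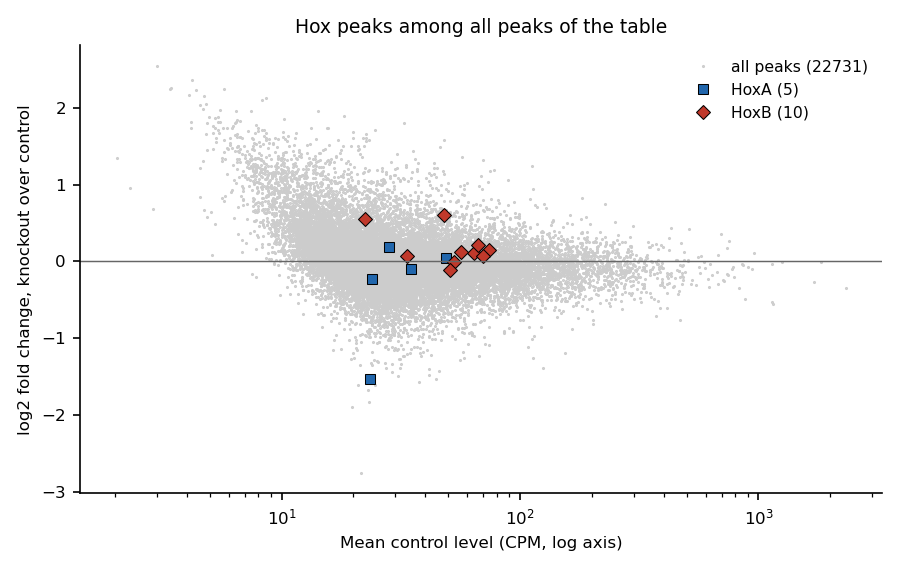
Log2 fold change (knockout over control) of all 22731 peaks (grey) against their mean control level in CPM on a log axis, with the 5 HoxA peaks as squares and the 10 HoxB peaks as diamonds. The HoxA peak at a log2 fold change of -1.53 sits near the lower edge of the cloud, the HoxB peaks at 0.60 and 0.55 near its upper part at their level, and the other 12 within its middle; weak grey peaks lean upwards.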

How the data were processed

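Raw counts for 1 common set of peaks in 6 H3K27ac libraries, not normalized, are what the authors deposited. Per the submitters' processing notes, reads were aligned to mm9, and the tools named are Bowtie, Picard, SAMtools, SEACR and bedtools. Tool versions, the merging of peaks and the read counter are not stated there. Between 82.8% and 88.9% of the counts of a library were even, which read pairs counted as 2 reads would give, so counting error is wider than the read numbers imply.

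All 22731 peaks passed filterByExpr and were tested in edgeR 4.0.16 (R 4.3.3) with TMM scaling, the quasi-likelihood model on group alone and Benjamini-Hochberg adjustment. The code was tested on simulated data. With this scaling, a shift of the whole peak set is invisible. The common biological coefficient of variation in edgeR was 11.4%. It is a single value fitted over all peaks for the variation between libraries beyond counting error, and single peaks can vary more. No 2 libraries looked like copies: halved counts gave a chi-square over its degrees of freedom of 1.53 to 1.84 within and 3.97 to 4.85 between groups. Cluster and position sums replaced their peaks in the table and were fitted in the same way. HoxC and HoxD sums had no peaks, so of the planned 6 pairs of clusters only HoxB with HoxA was compared. Its p was adjusted together with those of 4 other ratios. Peaks were named where called, densest, widest or nearest a window edge, and the rest are given more briefly. Alternatives were DESeq2 1.42.0, other scalings, filters and thresholds, halved counts, other window edges, leaving out each library and a block for replicate number. The windows, lists and tests were chosen with earlier results of these data known. No mm9 genome or annotation was used here, so no peak sequence is printed.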

Additional observations from a re-analysis of the deposited data

How the results depend on the processing

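Of the 15 Hox peaks, 3 were called with DESeq2, with each other scaling, without a filter, on halved counts, at an adjusted p under 0.01 and with other window edges. In the test against a 1.5-fold change 1 was called, the HoxA peak that fell. The filter at the 20th percentile of the mean level removed that peak and left 2 called. The count was 2 to 3 with each library left out. Of 228 values for the 12 uncalled Hox peaks under the alternatives, 0 were called.

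With each library left out in turn, the log2 fold change was -0.28 to -0.073 for the HoxA sum, 0.12 to 0.23 for the HoxB sum, -0.33 to -0.18 for the HoxA middle part, 0.16 to 0.28 for the HoxB group 13 part and 0.04 to 0.16 for the HoxB middle part. The HoxA middle part was not called with trended offsets (-0.20) or the filter at the 20th percentile (-0.21), and the HoxB sum not without its called peaks (0.089, chosen after seeing the data). The fitted changes of HoxB and HoxA differed by 0.31, by 0.27 to 0.42 with each library left out, and by 0.092 without the called peaks of both clusters. The cause of these shifts was not tested, and the fits without a library or without the called peaks also rest on fewer data.

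With trended offsets the HoxB sum changed by 0.25. Among the HoxA flank peaks, 15 to 17 were called higher with a library left out and 4 in the test against a 1.5-fold change. Among the HoxB flank peaks, 3 to 5 were called higher with a library left out, 2 with the filter at the 20th percentile and 1 in the test against a 1.5-fold change. These flank counts were added after seeing the data.

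Replicate numbers did not pair the libraries: deviations from the group means correlated at 0.00591 to 0.0671 for equal numbers and at -0.0489 to 0.0403 for others. With the number as a replicate block, 3 Hox peaks were called, the HoxA sum changed by -0.16 (adjusted p = 0.110) and the HoxB sum by 0.17 (adjusted p = 0.000155), and no call changed. With 3 libraries per group and 34 to 216 reads per library in the HoxA peak that fell, smaller changes of weak peaks may be missed.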
